A study of Drosophila melanogaster with 4 samples.

Results

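The Polycomb and trithorax group genes described here are 32 of the 17559 genes listed for wing imaginal discs of Drosophila melanogaster. They were chosen by gene name from the known subunits of these chromatin complexes, at a time when earlier results of these data were known, and all 32 were found (Caf1-55 stands as Caf1 in the table). Wing discs, the folded larval epithelia from which wing and notum develop, were taken from larvae in the third instar. The 4 libraries came from 2 y w control samples and 2 Paip1 mutant samples. The control carries mutations in the pigment gene y and the eye colour gene w. Paip1 is a partner of the poly(A)-binding protein that coats mRNA tails during translation, and the labels name neither its allele nor the background of the mutant line. Strain and mutation therefore cannot be told apart. The labels number the replicates without saying that they were collected separately, so the p-values reflect the spread among these 4 libraries alone and that spread may be technical.

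Polycomb group proteins keep developmental genes such as the Hox genes silent through cell divisions. Polycomb repressive complex 2 (PRC2) methylates histone H3, and Polycomb repressive complex 1 (PRC1) binds this mark, compacts chromatin and ubiquitinates histone H2A. Trithorax group proteins oppose them and keep the same genes active, through other histone methyltransferases and through ATP-driven remodelling of nucleosomes. In wing discs both groups maintain the patterns of segment and compartment genes, and discs that lose Polycomb proteins can overgrow.

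In the Paip1 mutant discs the transcripts of 21 members fell, 1 rose and 10 did not pass the test. The 1 that rose was jing, a zinc-finger cofactor of PRC2, at 6.04 times its control level in TPM. In the authors' deposited table its ratio was 2.61. The largest falls were those of Trl and kis, 2 trithorax group genes left with 45.2% and 48.4% of their control level. The 4 members that are subunits of the Brahma remodelling complexes all fell, to between 59.1% and 61.3% of control. E(z), the methyltransferase of PRC2, stood at 86.7% and did not pass. The test was limma on log2(TPM + 1), where TPM is a gene's share of all transcripts corrected for length, with Benjamini-Hochberg adjusted p under 0.05 over all 8605 tested genes as the threshold. These counts have a background: 29.1% of all tested genes fell and 15.6% rose. The median log2 fold change was -0.55 over the 32 members and -0.22 over all tested genes, a difference of -0.33.

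The scale of the libraries bears on every one of these falls. With TPM rescaled by median ratios, which moved the median of all tested genes by 0.22 to -0.0032, 16 members were lower and 1 was higher, against 17.1% and 21.7% of all tested genes. The members' median log2 fold change was then -0.32. The 5 falls that did not pass on that scale were those of Asx (adjusted p = 0.0541), Utx (0.0665), Psc (0.0866), ash1 (0.149) and pho (0.153). The calls on TPM as deposited also depended on which libraries were kept. The members' median log2 fold change was -0.55 without control replicate 1 and -0.56 without control replicate 2, against -0.55 with all 4 libraries. It was -0.44 without mutant replicate 1 and -0.69 without mutant replicate 2. Without control replicate 1 limma called no member lower, against 4.72% of all tested genes. It called only kis and escl lower without control replicate 2, against 5.4% of all tested genes. Without mutant replicate 1 the number lower was 8 (11.2% of all tested genes) and without mutant replicate 2 it was 21 (25.4%). The rise of jing passed in every one of these settings.

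**Figure D1:**
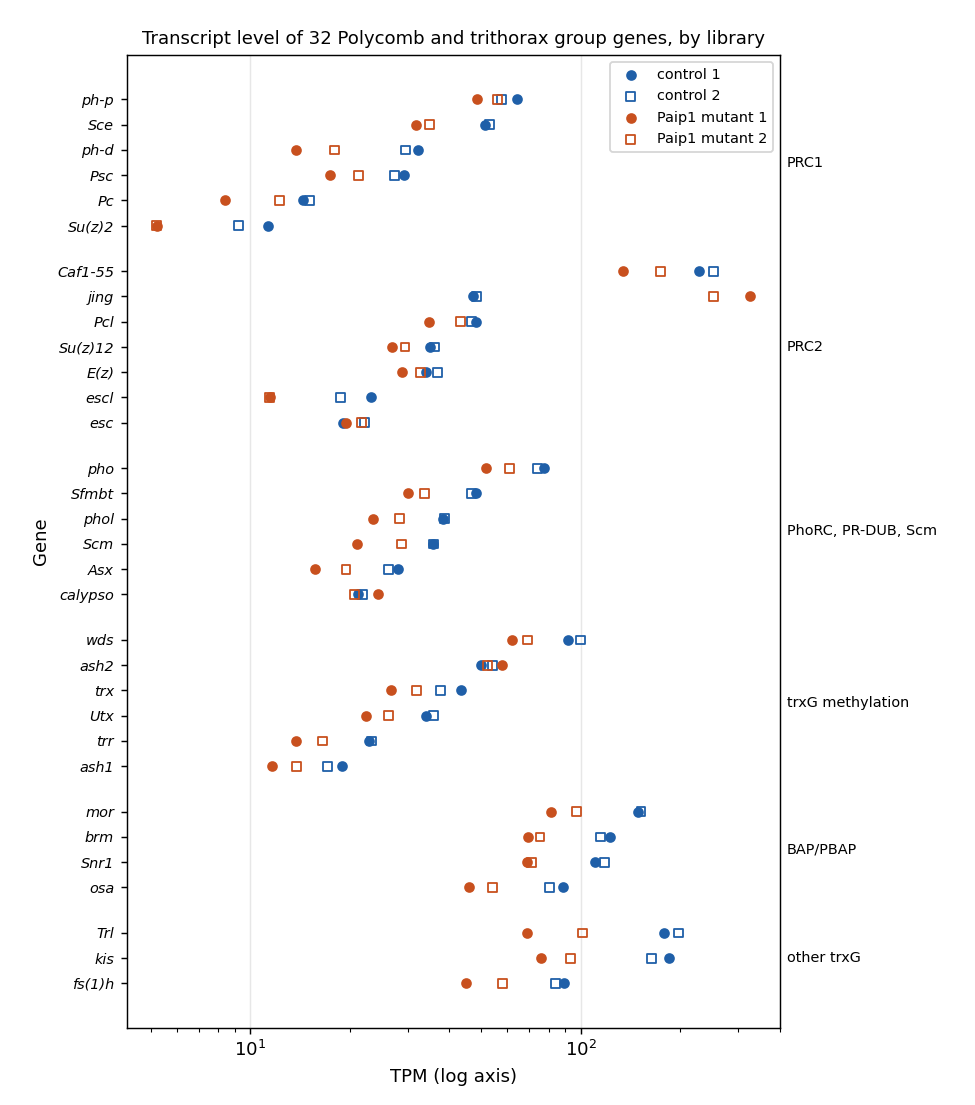
Transcript level of the 32 genes in each library, in TPM on a log axis. Each row is a gene, grouped by complex, with filled circles for replicate 1 and open squares for replicate 2 (blue control, orange Paip1 mutant). In 28 rows both mutant libraries lie below both control libraries, and in the row of jing they lie above.

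Both mutant libraries lay below both control libraries for 28 of the 32 members and above them for jing, while the groups overlapped for esc, calypso and ash2. Such a gap is common in this table: it was found downward in 52.8% and upward in 25.1% of all tested genes. The mutant mean was below 80% of the control mean for 25 members, against 42.7% of all tested genes. The members spanned a wide range of levels. Control means ran from 10.3 TPM for Su(z)2 to 239.8 TPM for Caf1-55, with a median of 44.0 TPM against 26.7 TPM over all tested genes. In control discs Caf1-55, Trl, kis, mor, brm and Snr1 stood highest, in that order. By these TPM values jing took the first place in the mutant, and Pc and Su(z)2 kept the lowest places in both groups. The place of jing rests on the TPM values, since its ratio in the authors' deposited table was smaller (2.61). The members together summed to 2071 and 2076 TPM in the control libraries and to 1524 and 1664 TPM in the mutant libraries. jing made up 2.31% of this sum in control and 18.1% in the mutant.

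The 4 libraries differed in more than these genes. Paip1 itself was at 112 and 121 TPM in control and at 2.37 and 2.22 TPM in the mutant. The listed values summed to 91.9% and 93.6% of the nominal TPM total in the mutant libraries and to 99.6% and 99.7% in the control libraries, and TPM keeps no read depth. Of 10 markers of the wing disc epithelium 9 fell, and 5 did so without control replicate 1 or without control replicate 2. Their summed level went from 871 and 836 TPM in control to 372 and 447 TPM in the mutant, and the notum genes pnr, eyg and tup had the smallest p. The 7 markers of adult muscle precursors went from 131 and 121 to 47.6 and 65.4 TPM. Of 13 tested muscle markers 11 rose and 1 fell. The 14 listed summed to 608 and 660 TPM in control and to 15863 and 15949 TPM in mutant discs, nearly all of it the titin gene sls. The 13 tested had a median log2 fold change of 2.78, and of them Mhc, Mlc1, bt and Prm were under 1 TPM in both control libraries. These genes passed the filter on low values only through the mutant libraries, so the direction of their change was set by the filter. Without sls the sum went from 450 and 500 to 568 and 646 TPM, most of it Tm1, at 399 and 438 against 310.2 and 457 TPM. The 11 hemocyte markers went from 41.5 and 60.0 to 65.0 and 73.6 TPM, the 9 of neurons and glia from 140 and 146 to 155 and 156 TPM, and the 8 of trachea from 961 and 981 to 1082 and 1263 TPM. Single markers were mixed behind the last 2 sums. Of the 8 tracheal markers 2 rose and 3 fell, with a median log2 fold change of -0.13. Of 5 tested markers of neurons and glia 2 rose and 1 fell (median -0.27). Of 8 tested hemocyte markers 3 rose and 0 fell, with a median log2 fold change of 0.69. Under a filter of 5 TPM on the mean 3 hemocyte markers were tested and 1 rose, and with a pseudocount of 0.1 only 1 of the 8 rose. The median of the 8 was 0.06 without control replicate 1 and 1.22 without control replicate 2. The 7 fat body markers stood at 1581 and 511 TPM in control and 308 and 40.4 TPM in the mutant, so that replicates of one group differed widely. The muscle gene Act88F was under 1 TPM in all 4 libraries, as were nSyb, brp and repo of the neuron and glia list. In such bulk samples fewer cells of a type and less RNA per cell cannot be told apart, and the part of these shifts in the members' changes was not tested.

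jing encodes a zinc-finger protein that binds PRC2 as an accessory subunit, like AEBP2 in mammals, and is also known for roles in border cells, trachea and the nervous system. It lies on the plus strand of chromosome arm 2R, from 6502006 to 6621792 in dm6, and has 4 annotated transcripts of 4817 to 7491 bases. Its level was 47.4 TPM in control replicate 1, 48.4 TPM in control replicate 2, 326 TPM in mutant replicate 1 and 252 TPM in mutant replicate 2. Pairs of values below keep this order. Both mutant libraries were far above the controls, and the mutant libraries differed from each other more than the control libraries did. The log2 fold change was 2.56 (SE 0.15, adjusted p = 0.000503), exceeded by 192 of the 8605 tested genes. Leaving out any 1 library gave adjusted p between 0.00861 and 0.018, and median-ratio scaling gave a log2 fold change of 2.79 (adjusted p = 0.00071). The size of the rise depended on the measure. The authors' deposited table gave jing a log2 fold change of 1.38 (adjusted p = 9.02e-23), 1.17 less than that of the TPM values.

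PRC2 has E(z), the histone H3 methyltransferase, as its catalytic subunit. E(z) was at 34.0 and 37.0 TPM in control and at 28.8 and 32.7 TPM in the mutant (log2 fold change -0.20, SE 0.12, adjusted p = 0.228). Its core partner Su(z)12 was at 35.02 and 36.2 against 26.9 and 29.4 TPM (adjusted p = 0.0622). For both genes the mutant libraries lay below the controls, but the differences did not pass the test. With median-ratio scaling the log2 fold changes were 0.02 for E(z), a change of sign, and -0.11 for Su(z)12. Pcl, a PHD-finger subunit that aids the spreading of methylation, stood at 47.5 ± 1.17 TPM in control against 39.0 ± 5.96 TPM in mutant discs (mean ± SD, n = 2, as for all such values; adjusted p = 0.15).

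The histone-binding WD40 subunit of PRC2 is encoded by esc or by its relative escl. The fall of escl passed the test and the log2 fold change of esc lay within its standard error, and the difference between the 2 genes was not tested. escl was at 23.2 and 18.8 TPM in control and at 11.50 and 11.47 TPM in the mutant (log2 fold change -0.81, SE 0.14, adjusted p = 0.0108). esc was at 19.1 and 22.2 TPM in control and at 19.5 and 21.8 TPM in the mutant, with overlapping groups (log2 fold change -0.0015, SE 0.13, adjusted p = 0.993). In control discs the 2 transcripts were thus about equally abundant, esc being 45.2% and 54.1% of their sum. In the mutant esc made up 62.9% and 65.5%. Caf1-55, a histone chaperone shared with other chromatin complexes, fell from 228 and 252 to 134 and 174 TPM (log2 fold change -0.65, SE 0.16, adjusted p = 0.0261). For escl the fall did not pass without control replicate 1 (adjusted p = 0.0899), mutant replicate 1 (0.0714) or mutant replicate 2 (0.0577). That of Caf1-55 did not pass without control replicate 1 (0.109), control replicate 2 (0.164) or mutant replicate 1 (0.0726).

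**Figure D2:**
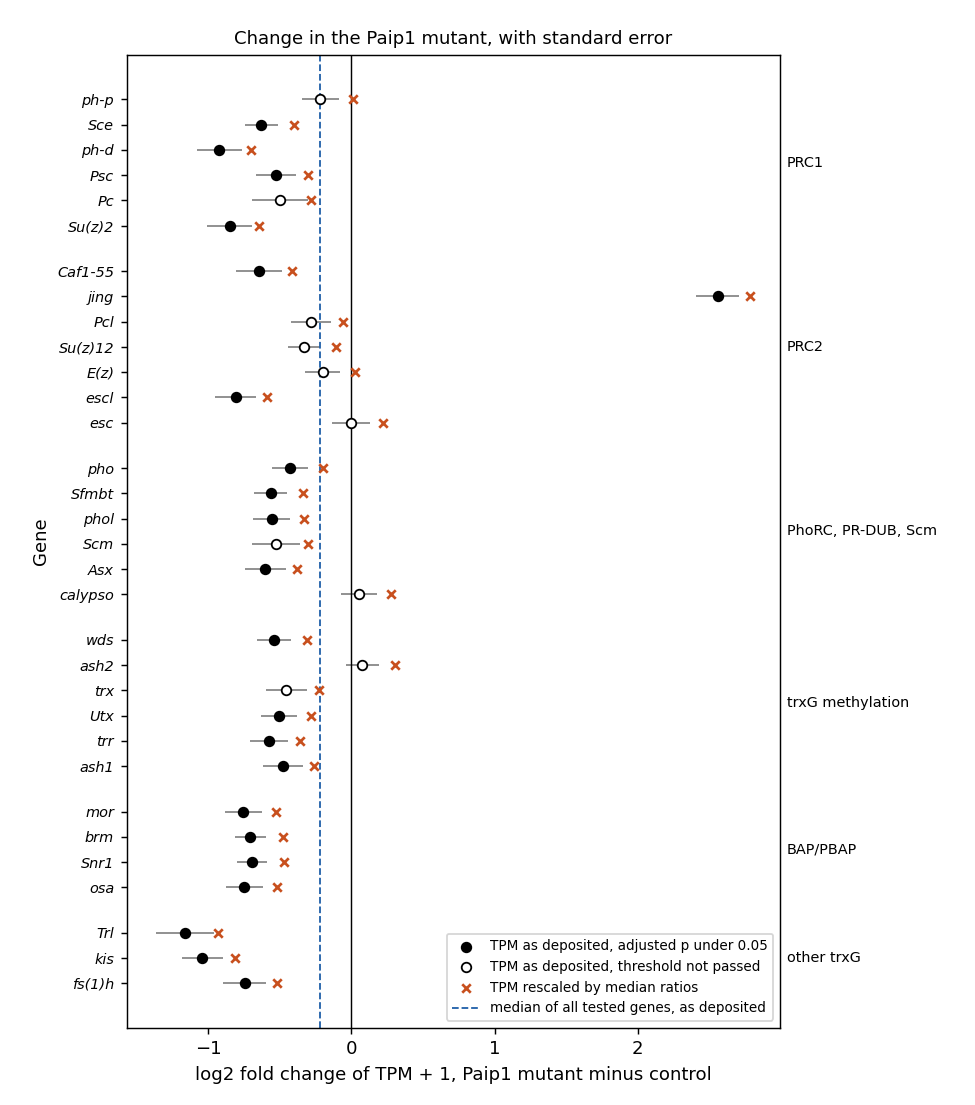
Log2 fold change of TPM + 1 (mutant minus control) with its standard error for each gene. Filled circles passed adjusted p under 0.05, open circles did not, and crosses give the same genes after median-ratio scaling. The dashed line is the median of all tested genes (-0.22). jing stands at 2.56 and all other members lie between -1.16 and 0.08.

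In PRC1, 4 of 6 members fell. Sce, the RING-type ligase that ubiquitinates histone H2A, fell from 51.3 and 52.9 to 31.8 and 34.99 TPM (log2 fold change -0.63, SE 0.11, adjusted p = 0.0111). Its partners are Psc and Su(z)2, neighbouring and related genes whose products compact chromatin. Psc fell from 29.2 and 27.4 to 17.5 and 21.3 TPM (log2 fold change -0.53, SE 0.14, adjusted p = 0.0314). Su(z)2 fell from 11.3 and 9.25 TPM to 5.24 and 5.21 TPM (log2 fold change -0.85, SE 0.15, adjusted p = 0.0116). Each of these mutant libraries lay below both controls. Pc, the chromodomain protein that reads the mark set by PRC2, was at 14.5 and 15.1 TPM in control and at 8.40 and 12.3 TPM in the mutant (log2 fold change -0.50, SE 0.19, adjusted p = 0.0872). Its mutant libraries were the more spread, and without mutant replicate 2 its adjusted p was 0.0364.

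The remaining PRC1 members are the polyhomeotic genes ph-p and ph-d, close copies that encode proteins able to polymerise. They lie 2923 bases apart on the minus strand of the X chromosome, ph-d from 2115727 to 2123286 and ph-p from 2126210 to 2138371. ph-d fell from 32.2 and 29.5 to 13.8 and 18.1 TPM (log2 fold change -0.92, SE 0.16, adjusted p = 0.0103). ph-p was at 64.2 and 57.8 TPM in control and at 48.7 and 56.0 TPM in the mutant (log2 fold change -0.22, SE 0.13, adjusted p = 0.21, and 0.01 with median-ratio scaling, a change of sign). So ph-p was 1.99 and 1.96 times as abundant as ph-d in control and 3.52 and 3.10 times in the mutant. The division of reads between such copies is uncertain. In the authors' deposited table the log2 fold change of ph-p was -0.60 (adjusted p = 2.38e-05) and that of ph-d was -0.79 (adjusted p = 1.56e-06), so both stood lower there.

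Without control replicate 1 the adjusted p of the 4 PRC1 falls lay between 0.0846 and 0.183 and without control replicate 2 between 0.0544 and 0.146. The falls of Sce and ph-d passed without mutant replicate 1 (adjusted p = 0.0472 and 0.0468), and those of Su(z)2 and Psc did not (0.0669 and 0.0936). Su(z)2 also missed the threshold without mutant replicate 2 (adjusted p = 0.0537).

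**Figure D3:**
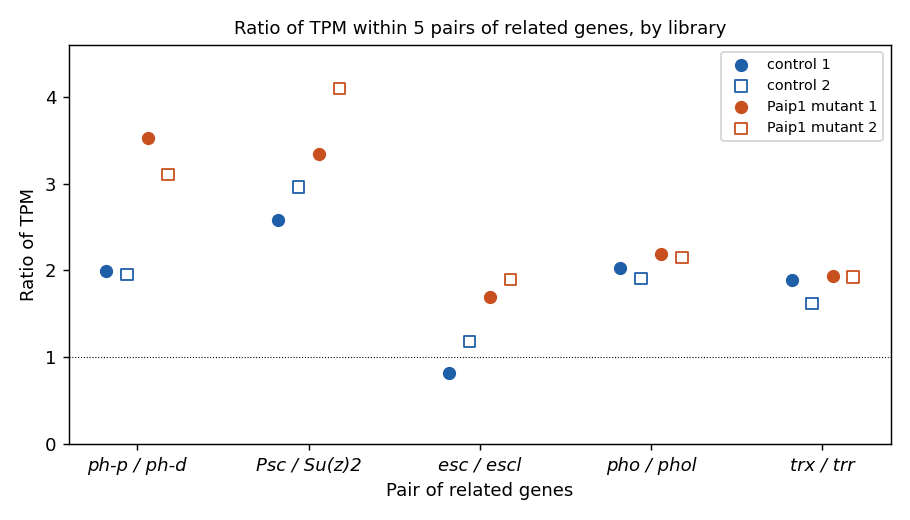
Ratio of TPM within 5 pairs of related genes in each library (blue control, orange Paip1 mutant, circles replicate 1, squares replicate 2; the dotted line marks equal levels). Both mutant libraries lie above both controls in all 5 pairs, narrowly for trx over trr and with the widest gaps for ph-p over ph-d and esc over escl.

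In 5 pairs of related members the ratio of TPM was higher in both mutant libraries than in both control libraries. The ratio of Psc to Su(z)2 was 2.58 and 2.96 in control and 3.34 and 4.10 in the mutant, and that of esc to escl went from 0.826 and 1.18 to 1.69 and 1.90. The ratios of pho to phol (1.97 ± 0.0871 to 2.17 ± 0.0307) and of trx to trr (1.75 ± 0.192 to 1.93 ± 0.00919) moved less. For trx to trr, control replicate 1 (1.89) lay close to the mutant libraries (1.94 and 1.92). The direction of each gap depends on which gene is written first, and how often other gene pairs show such a gap was not counted. These ratios are a description with no test, since an exact permutation test of 2 libraries against 2 cannot give a two-sided p below 0.333.

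Polycomb complexes are brought to DNA by pho and phol, related zinc-finger proteins that bind Polycomb response elements. Together with Sfmbt, which binds methylated histones, they form the Pho repressive complex. phol fell from 38.2 and 38.7 to 23.5 and 28.3 TPM (log2 fold change -0.56, SE 0.13, adjusted p = 0.0234). pho, on chromosome 4, fell from 77.7 and 73.9 to 51.6 and 60.9 TPM (log2 fold change -0.43, SE 0.13, adjusted p = 0.0429). Sfmbt fell from 48.3 and 46.7 to 30.04 and 33.6 TPM (log2 fold change -0.56, SE 0.12, adjusted p = 0.0158). All 3 genes had both mutant libraries below the controls. Scm, which links these complexes, was at 35.8 and 35.9 TPM in control and at 21.1 and 28.7 TPM in the mutant. Its control libraries were nearly equal and its mutant libraries far apart, and the difference did not pass (adjusted p = 0.0537), though it did without mutant replicate 2 (0.0293), under the filter of 5 TPM on the mean (0.0411) and with the replicate block (0.0387). An antisense gene overlaps 16.7% of the exon bases of Sfmbt, and the sources used here do not say whether counting used the strand.

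The Polycomb deubiquitinase removes ubiquitin from histone H2A and consists of the enzyme calypso and its partner Asx. Asx fell from 28.1 and 26.3 to 15.8 and 19.5 TPM (log2 fold change -0.60, SE 0.14, adjusted p = 0.0237). calypso was at 21.2 and 21.95 TPM in control and at 24.4 and 20.6 TPM in the mutant (log2 fold change 0.05, SE 0.13, adjusted p = 0.757), with overlapping groups. The exons of calypso share 10.1% of their bases with clu on the opposite strand. The falls of phol, pho, Sfmbt and Asx passed without mutant replicate 2. They did not pass without control replicate 1 (adjusted p between 0.128 and 0.229), control replicate 2 (0.115 to 0.188) or mutant replicate 1 (0.0561 to 0.0979).

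Among the trithorax group members, all 4 subunits of the Brahma complexes fell. These complexes slide or evict nucleosomes with the ATPase brm, and osa marks the BAP form of the complex. brm fell from 122.5 and 114.8 to 69.5 and 75.3 TPM (log2 fold change -0.71, SE 0.11, adjusted p = 0.00784). osa fell from 88.7 and 80.6 to 46.1 and 54.0 TPM (log2 fold change -0.75, SE 0.13, adjusted p = 0.0105). mor, a core subunit, fell from 149 and 152 to 81.4 and 97.0 TPM (log2 fold change -0.75, SE 0.13, adjusted p = 0.00941). Snr1, also a core subunit, fell from 110 and 118 to 69.1 and 71.1 TPM (log2 fold change -0.70, SE 0.11, adjusted p = 0.00732). These 4 log2 fold changes lay within each other's standard errors, and both mutant libraries were below both controls in each case. With median-ratio scaling all 4 stayed lower (adjusted p between 0.00971 and 0.0167). They did not pass without control replicate 1 (0.0676 to 0.0948) or control replicate 2 (0.0697 to 0.0867), and osa did not pass without mutant replicate 1 (0.0504).

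Trl encodes the GAGA factor, a DNA-binding protein that opens chromatin at promoters and Polycomb response elements. It lies on the minus strand of 3L, from 14747929 to 14761049. It fell from 179 and 198 to 69.0 and 101 TPM (log2 fold change -1.16, SE 0.20, adjusted p = 0.0103). Its level is uncertain, because CG42507, on the same strand, covers 71.0% of its exon bases. kis, a chromodomain remodeller that promotes transcription elongation, fell from 185 and 164 to 75.8 and 93.0 TPM (log2 fold change -1.04, SE 0.14, adjusted p = 0.00565). fs(1)h, the fly BET bromodomain protein that reads acetylated histones, fell from 88.9 and 84.0 to 45.1 and 57.9 TPM (log2 fold change -0.75, SE 0.15, adjusted p = 0.0152). In each of the 3 the mutant libraries were below the controls, with replicate 1 the lower. Without control replicate 1 their adjusted p was 0.0637 (Trl), 0.0599 (kis) and 0.111 (fs(1)h). Without control replicate 2 it was 0.0793, 0.0426 and 0.0952 in the same order.

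Of the 6 trithorax group members that methylate histones or belong to complexes that do, 4 fell. trr, the methyltransferase of the complex that marks enhancers, fell from 22.9 and 23.2 to 13.8 and 16.6 TPM (log2 fold change -0.58, SE 0.13, adjusted p = 0.0218). Its partner Utx, a demethylase that removes the mark of PRC2, fell from 34.0 and 35.8 to 22.4 and 26.3 TPM (log2 fold change -0.51, SE 0.13, adjusted p = 0.0272). ash1, which methylates histone H3 at another lysine and so limits PRC2, fell from 19.0 and 17.2 to 11.7 and 13.8 TPM (log2 fold change -0.48, SE 0.14, adjusted p = 0.0404). wds, a WD40 subunit common to these complexes, fell from 91.8 and 99.7 to 62.2 and 68.9 TPM (log2 fold change -0.54, SE 0.12, adjusted p = 0.0182). Each gene had its mutant libraries below the controls.

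trx, the founding member of the group, was at 43.3 and 37.6 TPM in control and at 26.7 and 31.9 TPM in the mutant (log2 fold change -0.45, SE 0.14, adjusted p = 0.0503), just beyond the threshold, and passed under the filter of 5 TPM on the mean (0.039). ash2, a core subunit beside wds, was at 50.1 and 54.2 TPM in control and at 57.7 and 52.4 TPM in the mutant (log2 fold change 0.08, SE 0.12, adjusted p = 0.615), with overlapping groups. The falls of trr, Utx, ash1 and wds did not pass without control replicate 1 (adjusted p between 0.103 and 0.226), control replicate 2 (0.143 to 0.183) or mutant replicate 1 (0.0653 to 0.137), and ash1 did not pass without mutant replicate 2 (0.0555).

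Of the 5 members on the X chromosome (ph-p, ph-d, trr, fs(1)h and wds) 4 fell, while 31.6% of the 1416 tested X-linked genes did. The X-linked genes had a median log2 fold change of -0.24, near that of all tested genes. Of 9 listed genes tied to sex 5 were tested, of which 2 fell, 1 rose and 2, Sxl and msl-2, did not pass. roX2, an RNA of the male dosage compensation complex, fell from 47.6 ± 3.15 to 8.61 ± 0.0778 TPM (adjusted p = 0.0003). roX1, its companion, fell from 97.1 ± 25.9 to 47.1 ± 5.11 TPM (adjusted p = 0.0162, and 0.0248 with median-ratio scaling), a call lost without control replicate 2 (adjusted p = 0.0853), mutant replicate 1 (0.121) or mutant replicate 2 (0.072). kl-3, a Y-linked gene, rose from 0.31 ± 0.438 to 28.7 ± 2.13 TPM (adjusted p = 0.000479) and passed the filter on low values only through the mutant libraries. kl-5, the other Y-linked gene listed, was under 1 TPM in all 4 libraries, as were Yp1, Yp2 and Yp3. The part of sex composition in the values of the X-linked members was not tested.

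**Figure D4:**
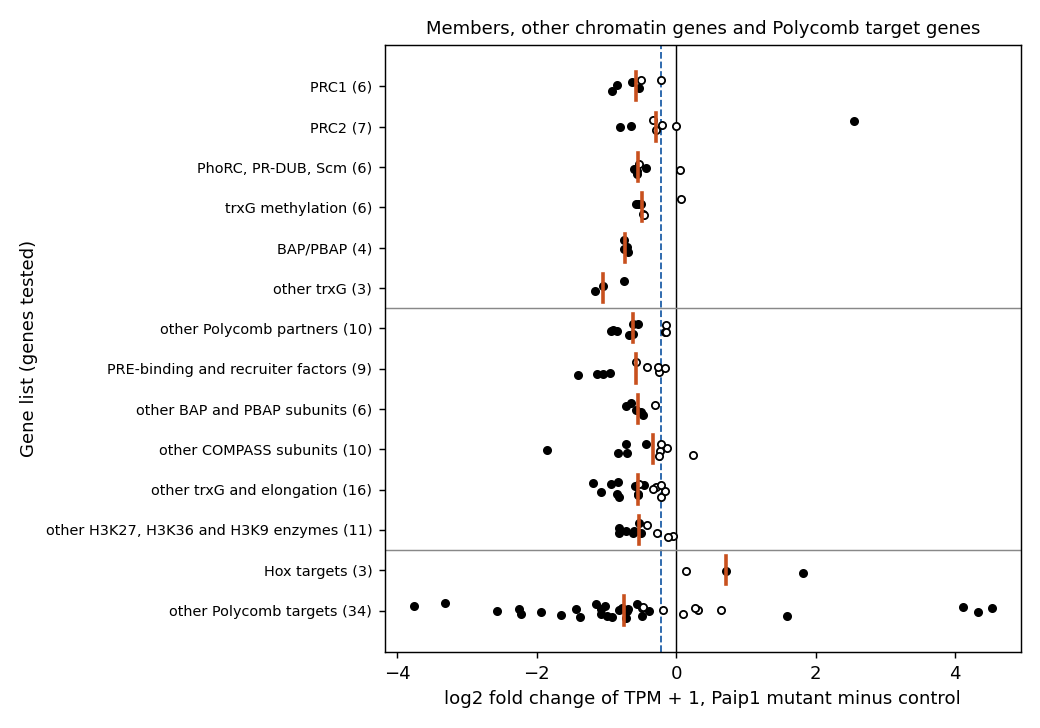
Log2 fold change of TPM + 1 (mutant minus control) of every tested gene in the 6 member groups (top), 6 lists of other chromatin genes (middle) and 2 lists of Polycomb target genes (bottom). Filled points passed adjusted p under 0.05, orange bars are list medians and the dashed line is the median of all tested genes (-0.22). No other chromatin gene passed on the higher side.

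Other genes of the same complexes and pathways gave similar counts. Of 61 such genes, taken from 6 lists, 38 fell and 0 rose by limma, with a median log2 fold change of -0.55. At an unadjusted p under 0.05, 44 were lower and 0 higher, and the share of all tested genes at that threshold was not counted. The authors' deposited table called 36 lower and 0 higher, against 20.8% and 19.9% of the tested genes. With median-ratio scaling 27 fell, against 17.1% of all tested genes. Most of the falls did not pass without control replicate 1, control replicate 2 or mutant replicate 1, settings in which fewer of all tested genes passed too. The median log2 fold change of the 61 genes was then -0.54, -0.58 and -0.44, in that order. Over all tested genes it was -0.25, -0.20 and -0.16. Among other Polycomb partners 7 of 10 fell. They included Kdm2, a demethylase found with PRC1 subunits (51.2 ± 3.21 to 27.9 ± 1.46 TPM, adjusted p = 0.00528), Jarid2, a PRC2 cofactor (34.1 ± 1.8 to 17.9 ± 2.28 TPM, adjusted p = 0.00706), and RYBP, which binds Sce (29.1 ± 0.368 to 17.8 ± 1.57 TPM, adjusted p = 0.0107). Jarid2 thus fell while jing, another cofactor of PRC2, rose. Without control replicate 1 none of these 3 falls passed (adjusted p between 0.0664 and 0.0939), and without control replicate 2 only Kdm2 did (0.0496, the others up to 0.0915).

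Of 9 factors that bind Polycomb response elements 4 fell. The transcription factor gene Adf1 fell from 123 ± 1.17 to 55.2 ± 2.5 TPM (adjusted p = 0.00176, log2 fold change -1.14). grh, which acts in epithelia, fell from 119.6 ± 5.59 to 45.6 ± 13.2 TPM (adjusted p = 0.00698, log2 fold change -1.40). z fell from 60.4 ± 5.48 to 29.0 ± 4.89 TPM (adjusted p = 0.0071, log2 fold change -1.04). The fall of Adf1 passed without any 1 library, those of grh and z not without control replicate 1 (adjusted p = 0.0593 and 0.0504) or control replicate 2 (0.0514 and 0.0673). lolal stands in this list and in that of the Polycomb partners and did not pass.

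Of 6 other subunits of the Brahma complexes 5 fell, led by Bap55 (134 ± 4.94 to 85.3 ± 7.43 TPM, adjusted p = 0.0115), Bap111 (133 ± 2.11 to 80.7 ± 11.9 TPM, adjusted p = 0.0128) and Bap60 (175 ± 2.44 to 123 ± 1.72 TPM, adjusted p = 0.0142). With median-ratio scaling 2 of the 6 were lower, and the 3 named did not pass without control replicate 1 (adjusted p between 0.0873 and 0.128) or control replicate 2 (0.0952 to 0.12). Among 10 other subunits of the trx, trr and Set1 complexes 5 fell. Mnn1, the fly menin that joins the trx complex, went from 37.3 ± 1.85 to 9.70 ± 1.29 TPM (adjusted p = 0.000926, log2 fold change -1.85), a call that passed without any 1 library. Ptip, of the trr complex, fell from 24.4 ± 0.283 to 13.4 ± 2.44 TPM (adjusted p = 0.012), and Hcf fell from 75.0 ± 5.08 to 45.9 ± 4.72 TPM (adjusted p = 0.0117). Neither passed without control replicate 1 (0.086 and 0.104) or control replicate 2 (0.0924 and 0.0779), nor Hcf without mutant replicate 1 (0.0544).

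Of 16 other trithorax group and elongation genes 10 fell. Among them were Bre1, a ligase for histone H2B (62.0 ± 3.25 to 32.03 ± 1.94 TPM, adjusted p = 0.00405), Acf, a partner of the remodeller Iswi (55.5 ± 0.693 to 23.9 ± 4.36 TPM, adjusted p = 0.00452), and lid, a histone demethylase (56.6 ± 0.389 to 31.2 ± 4.05 TPM, adjusted p = 0.00764). The fall of Acf passed without any 1 library. Bre1 missed the threshold without control replicate 1 (0.0562), and lid without control replicate 1 (0.0712) or 2 (0.0729). Of 11 other enzymes of histone lysine methylation 7 fell, and 3 with median-ratio scaling. Those with the smallest p were G9a (adjusted p = 0.00914), Hmt4-20 (0.0123) and gpp (0.0132), with log2 fold changes of -0.72, -0.83 and -0.82, and they passed without mutant replicate 2 but not without control replicate 1 (0.0919 to 0.102), control replicate 2 (0.0578 to 0.0714) or mutant replicate 1 (0.0523 to 0.0804).

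The Hox genes are the best known targets of both groups. In the mutant Scr, the Hox gene of the first thoracic segment, rose from 0.39 and 0.34 to 3.53 and 4.14 TPM (log2 fold change 1.82, adjusted p = 0.00379) and passed the filter on low values only through the mutant libraries. Ubx, the Hox gene of the haltere segment, rose from 4.65 and 5.71 to 8.18 and 10.2 TPM (adjusted p = 0.0264), and its adjusted p was between 0.0652 and 0.158 with each library left out. Antp, chosen after its values were seen, was at 31.2 ± 1.98 TPM in control and 34.6 ± 4.24 TPM in mutant discs (adjusted p = 0.428, and 0.0385 with median-ratio scaling). The other 5 Hox genes, lab, pb, Dfd, abd-A and Abd-B, were under the filter of 1 TPM in at least 2 libraries. Of 34 tested genes on a list of 44 other Polycomb targets 23 fell and 4 rose, against 29.1% and 15.6% of all tested genes. The 3 with the smallest p that fell were pnr, tup and eyg, genes of the notum, which stand among the wing disc markers too. upd1, upd2 and upd3, ligands of the JAK-STAT pathway, rose, upd1 from 6.45 ± 0.127 to 129.5 ± 23.2 TPM (adjusted p = 0.000127). Fewer of these falls passed without control replicate 1 or control replicate 2. The median log2 fold change of the 34 genes was then -0.76 and -0.74, against -0.75 with all libraries. Over all tested genes it was -0.25 and -0.20 in these 2 settings. After median-ratio scaling there were 19 falls and 8 rises, against 17.1% and 21.7% of all tested genes.

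**Figure D5:**
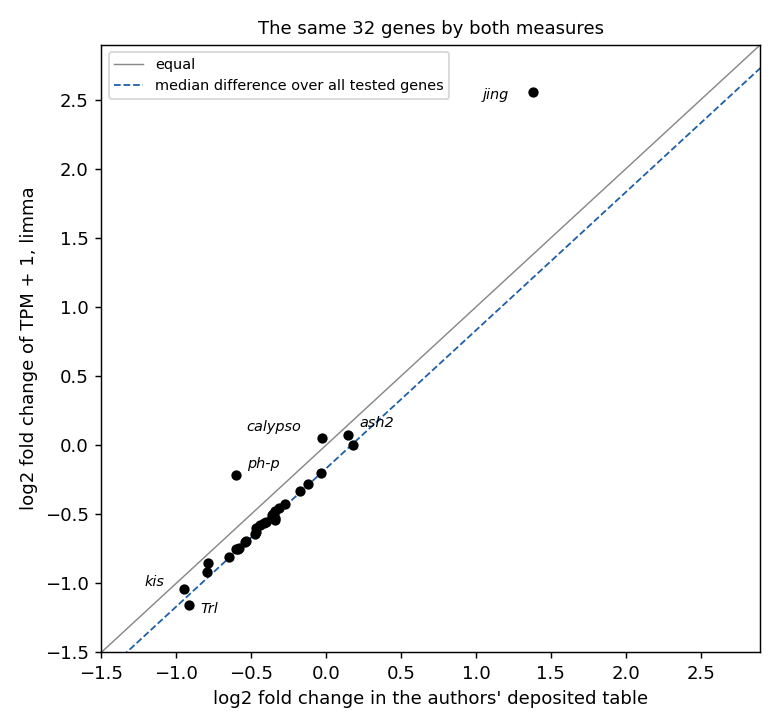
Log2 fold change of TPM + 1 from limma against the log2 fold change in the authors' deposited table, 1 point per member. The grey line marks equality and the dashed line the median difference over all tested genes (-0.17). Nearly all members follow the dashed line, while ph-p and jing lie above it.

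The authors' deposited table called 22 members lower and 1 higher at its adjusted p under 0.05, against 20.8% and 19.9% of the tested genes. Its median log2 fold change was -0.41 over the members and -0.06 over all tested genes. The TPM-based log2 fold changes were lower than those of the authors' deposited table by a median of 0.17 over all tested genes, with 5% of genes below -1.01 and 5% above 0.12. For the 30 members other than jing and ph-p the difference lay between -0.25 and 0.08. It was 0.38 for ph-p, above 96.9% of the tested genes, and 1.17 for jing, above 98.8%. These 2 genes were chosen after their values were seen. jing was the 1 higher member by both measures. ph-p and trx (adjusted p = 0.0483) were among the falls in the authors' deposited table only, and pho was among those of limma only (0.0741 in the authors' deposited table).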

How the data were processed

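RNA extracted with Trizol from wing discs was sequenced on an Illumina HiSeq instrument, per the labels' protocols. The submitters' processing notes name FastQC, TopHat, RSEM and DESeq and the build dm6, with no version or role. The authors deposited 1 table with no unit in its header. The library columns hold fractional values that nearly reach the TPM total, so they were taken as TPM, which the authors had computed before deposit. Per the file headers, further columns give the authors' mutant-to-control ratio, the log2 of it, and p-values before and after adjustment. Read depth is unknown, so no counting interval is given.

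limma 3.58.1 (R 4.3.3) was run on log2(TPM + 1) with variances that follow the mean, two-sided, over the 8605 genes that reached 1 TPM in 2 or more libraries. Residual and prior degrees of freedom were 2 and 3.27. Fold changes of low genes are understated on this scale. Without 1 library, the lone sample is assumed to vary like the other group. No libraries held identical values. Coordinates and overlaps came from Ensembl annotation 115 (dm6 coordinates).

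The members and lists were chosen with earlier results of these data known. Named were all members, and of each other list up to 3 genes per direction by smallest p, or the 2 highest where none passed. Alternatives were 2 other scalings, a pseudocount of 0.1, other filters, a constant prior variance, the replicate number as a block and leaving out each library. Figures were made with Python 3.11.15 and matplotlib 3.10.9.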

Additional observations from a re-analysis of the deposited data

How the results depend on the processing

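Over all tested genes, 2506 were lower and 1346 higher as reported. Median-ratio scaling gave 1469 lower and 1864 higher. Leaving out 1 library each gave 406 to 2184 lower and 607 to 1089 higher. Of the members, 0 to 21 were lower and 1 was higher with each library left out, and 14 to 24 were lower in the other alternatives. The 22 called members kept their sign in all of these settings, and jing passed in each. The replicate numbers do not mark a shared collection in the labels, and the deviations of same-numbered libraries correlated at 0.0648. The replicate block gave 22 members lower and 1 higher. The numbers of all tested genes were then 2843 lower and 1403 higher. The number of libraries, 2 in each group, limits the precision, and read depth is unknown: all 21 falls missed the threshold without control replicate 1.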
